A study of Mus musculus with 4 samples.

Results

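The comparison described here sets the miRs of proangiogenic cells (PACs) from hypercholesterolemic mice (HC) against those of PACs from healthy young control mice (CTL). It uses 2 of the 4 libraries of the series, and its members are the 568 mature miRs of the deposited table. Folds, meaning the value in HC over the value in CTL, were read for the 158 miRs that had at least 100 RPM (reads for each 1000000 mapped reads) in either library. HC mice were APOE-/- animals on a C57Bl/6 background, 2 months old by the labels, and the methods state that they had been on a Western-type diet with added cholesterol and cholate for 5 weeks before surgery. CTL mice were C57Bl/6 animals of the same labelled age. Both groups underwent unilateral hindlimb ischemia by removal of the femoral artery, their bone marrow was taken 2 days later, and the adherent cells were cultured for 4 days before RNA extraction. The deletion is present in all cells of the animal, and it came together with the diet, so genotype and diet cannot be told apart. The other libraries were from C57Bl/6 mice with the same surgery, aging mice (16 months) and mice exposed to cigarette smoke (SMK, 2 months), and their values are given where they help to place HC. Each library was a single pool of RNA, labelled as 4 samples for HC, 2 for aging, 4 for SMK and 6 for CTL, so there were no replicates and the ratios compare 2 libraries, not 2 conditions.

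PACs are adherent bone marrow cells that take up acetylated low-density lipoprotein, bind lectin and assist the growth of new vessels after ischemia, mostly through secreted factors. ApoE is the ligand through which remnant lipoproteins are cleared from blood, and mice without it accumulate cholesterol and develop atherosclerosis. A miR is a short RNA cut from a hairpin, of which the 5′ (5p) or the 3′ (3p) arm or both may be kept, and it represses mRNAs that pair with its seed, bases 2 to 8.

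The HC library was the shallowest of the series, with 1038986 counts against 2541732 in CTL, and a single count was worth 0.962 RPM in HC and 0.393 RPM in CTL. All 568 miRs were above 0 in both. The smallest count behind any of the 158 miRs was 37 in HC and 26 in CTL. Parentheses after a fold hold its exact 95% interval, taken from the 2 counts, which covers counting error only. The 14 listed miRs of myeloid cells took a large part of both libraries and summed to 376599 RPM in HC and 400528 RPM in CTL. Most of these sums was miR-21a-5p alone, with 274087 RPM in HC and 310000 RPM in CTL. The 5 listed muscle miRs summed to 67.4 RPM in HC and 76.7 RPM in CTL. ApoE itself cannot be checked in miR data.

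The sequences that matter for the folds are shown first, from 5′ to 3′, with the seed in capitals. They were read from RefSeq (GRCm38.p6), where 89.2% of the 158 miRs had an entry. The first set holds 7 of the 10 largest ratios in favour of HC, and it is shown because these miRs are rich in G and C, with a median GC content of 56.5% over these 7 against 45.5% over the tested miRs with a sequence.
miR-744-5p: uGCGGGGCuagggcuaacagca
miR-2137: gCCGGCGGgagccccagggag
miR-484: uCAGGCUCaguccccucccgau
miR-7015-5p: uCUGUGCAguaggcuguggguuc
miR-501-3p: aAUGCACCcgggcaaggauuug
miR-423-5p: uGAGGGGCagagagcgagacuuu
miR-674-3p: cACAGCUCccaucucagaacaa

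The second set holds 6 of the 10 lowest ratios, in which A and U are more frequent outside miR-31-5p and miR-210-3p.
miR-542-3p: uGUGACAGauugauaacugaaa
miR-29c-3p: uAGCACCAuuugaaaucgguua
miR-31-5p: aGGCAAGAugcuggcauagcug
miR-101b-3p: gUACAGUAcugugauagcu
miR-218-5p: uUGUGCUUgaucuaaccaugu
miR-210-3p: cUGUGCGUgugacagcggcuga

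The third set pairs miRs that share a seed, because some of these pairs had like folds and others did not.
miR-92a-3p: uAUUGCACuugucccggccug
miR-25-3p: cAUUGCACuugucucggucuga
miR-29a-3p: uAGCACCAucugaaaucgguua
miR-29b-3p: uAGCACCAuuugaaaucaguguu
miR-15b-5p: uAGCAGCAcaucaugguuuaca
miR-16-5p: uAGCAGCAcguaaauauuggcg
miR-125a-5p: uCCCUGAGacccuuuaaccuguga
miR-125b-5p: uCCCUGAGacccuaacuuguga
miR-351-5p: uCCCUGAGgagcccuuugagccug

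The remaining large ratios were those of miR-328-3p, miR-151-3p and miR-320-3p on the high side, and of miR-30b-5p, miR-143-3p, miR-126a-5p and miR-17-5p on the low side.

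A miR was called lower in HC below 0.8-fold and higher above 1.6-fold, the limits used in the study. Of the 158 miRs, 84 (53.2%) were past a limit. There were 55 higher miRs (34.8%), 29 lower miRs (18.4%) and 74 between the limits. The methods do not state which library has to reach 100 RPM, and either was taken here. With 100 RPM required in both, 59 miRs (46.5%) were past a limit, 33 higher and 26 lower. The ratios ran from 0.348-fold to 19.1-fold, and 35 miRs were above 2-fold whereas 4 were below 0.5-fold. The median log2 fold over the 158 miRs was 0.32, with an SD across miRs of 1.03. The whole interval lay above 1.6-fold for 45 miRs (28.5%) and below 0.8-fold for 22 (13.9%), that is, for 67 of the 84. At the limits, miR-10b-5p stood at 0.783-fold and miR-148a-3p at 0.801-fold, and miR-103-3p stood at 1.61-fold and miR-142a-5p at 1.58-fold. The balance between higher and lower depended on scaling. Higher miRs were 65.5% of the miRs past a limit as deposited, 53.4% with a median ratio (which shifted all log2 folds by -0.13), 33% after trimmed-mean scaling (-0.43), 23.7% after scaling by total reads (-0.70) and 10.9% with recovered counts over total reads (-1.18). Scaling by total reads multiplied RPM by the share of miR reads among the total reads that the study tabulates. The last alternative, chosen after the data were seen, divided the counts recovered from the RPM by the same total reads, and gave 14 higher and 115 lower miRs.

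**Figure D1:**
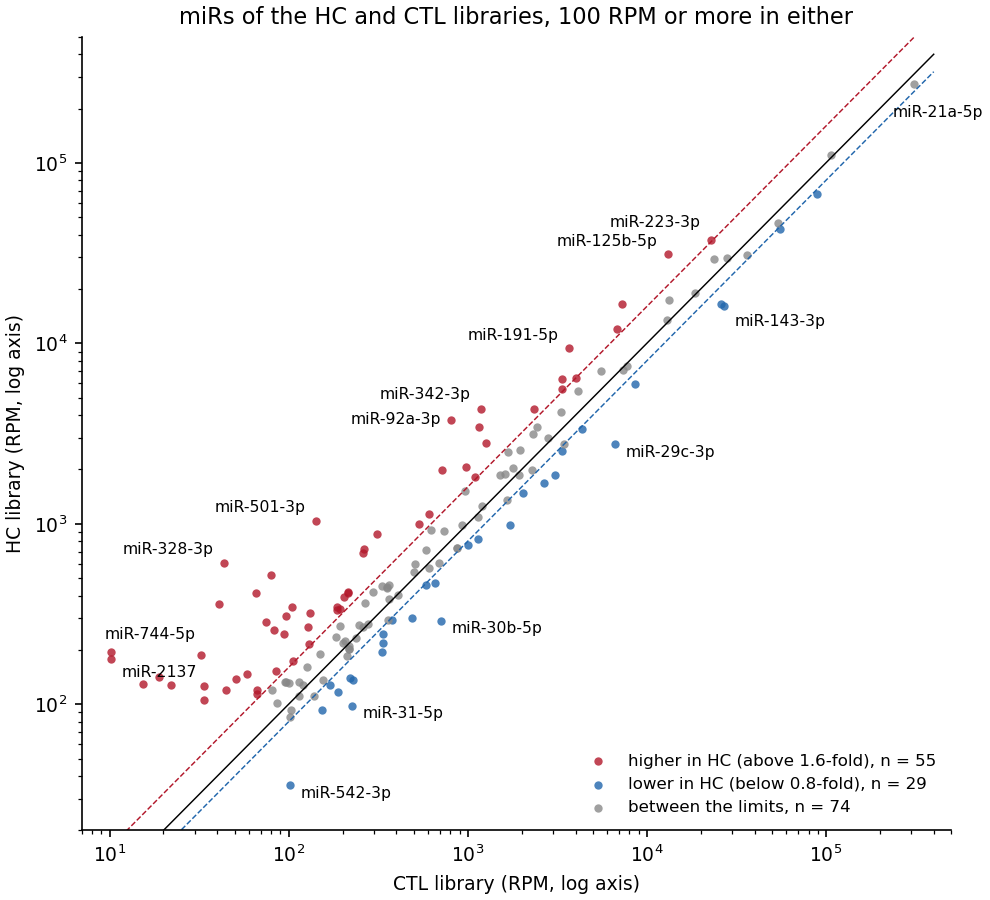
Level of each of the 158 miRs in the HC library (RPM, log axis, vertical) against the CTL library (RPM, log axis, horizontal), 1 point a miR, with the line of equal levels and dashed lines at 0.8-fold and 1.6-fold. The 55 higher miRs (red) reach farthest from the line at low CTL levels, and 22 of them were under 100 RPM in CTL, while the 29 lower miRs (blue) stay closer to it.

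Among miRs that averaged under 100 RPM over both libraries, 10 of 15 were higher and 1 was lower. From 100 to under 1000 RPM there were 29 higher and 16 lower of 86, from 1000 to under 10000 RPM 13 and 8 of 41, and from 10000 RPM 3 and 4 of 16. Of the 55 higher miRs, 22 were under 100 RPM in CTL and entered through their level in HC, so that their ratio had to be above 1. Likewise, 3 of the 29 lower miRs were under 100 RPM in HC.

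The miR with the largest ratio was miR-744-5p, made in an intron of Map2k4 (chromosome 11, 65734733 to 65734832, GRCm38). It had 195.4 RPM in HC, against 82.2 in aging, 74.8 in SMK and 10.2 in CTL, which is 19.1-fold (12.7 to 29.9) for HC over CTL. Of the 10 largest ratios, 9 belonged to miRs under 100 RPM in CTL that entered through HC, and with 100 RPM required in CTL the largest ratio was that of miR-501-3p. MiR-2137, annotated in an intron of Zfp185 (chromosome X, 72992079 to 72992144), had 179 RPM in HC, against 53.5 in aging, 39.5 in SMK and 10.2 in CTL, a ratio of 17.5-fold (11.6 to 27.5). MiR-328-3p had 609 RPM in HC, against 279 in aging, 155.1 in SMK and 43.7 in CTL, a ratio of 14.0-fold (11.4 to 17.2). In these 3 miRs HC stood highest and CTL lowest, with aging and SMK in the middle.

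MiR-151-3p, made in the gene of focal adhesion kinase, had 360.0 RPM in HC, against 209.7 in aging, 175 in SMK and 40.9 in CTL, which gives 8.80-fold (7.06 to 11.0). MiR-484, a miR processed without the Microprocessor complex (chromosome 16, 14159626 to 14159692), had 128.97 RPM in HC, against 93.1 in aging, 60.5 in SMK and 15.3 in CTL, or 8.41-fold (5.85 to 12.3). MiR-7015-5p was the exception among the largest ratios, with more in aging than in HC, at 141.5 RPM in HC, against 149 in aging, 94.0 in SMK and 18.9 in CTL or 7.49-fold (5.37 to 10.6). The ratio of miR-7015-5p to SMK in place of CTL was 1.505-fold, within the limits.

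MiR-501-3p, from a group of miRs in an intron of Clcn5 (chromosome X, 7241243 to 7241351), was the most abundant of the 10 largest ratios, with 1040.4 RPM in HC, against 646 in aging, 492 in SMK and 141.6 in CTL or 7.35-fold (6.51 to 8.30). MiR-423-5p, from an intron of Nsrp1 (chromosome 11, 77078064 to 77078172), had 517 RPM in HC, against 397 in aging, 250.3 in SMK and 79.5 in CTL, or 6.50-fold (5.52 to 7.68). MiR-320-3p, whose precursor also bypasses the Microprocessor, had 416 RPM in HC, against 215 in aging, 189 in SMK and 65.7 in CTL, or 6.33-fold (5.28 to 7.61). MiR-674-3p had 128.01 RPM in HC, against 72.0 in aging, 70.1 in SMK and 22.03 in CTL, or 5.81-fold (4.22 to 8.09). CTL was the lowest of the 4 libraries for all 10 of these miRs and HC the highest for 9, which is a description, since they were ranked on HC over CTL.

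More abundant miRs also stood above the limit. MiR-92a-3p, a member of the miR-17~92a transcript that restrains vessel growth when raised in endothelial cells, had 3760.4 RPM in HC, against 1954 in aging, 1931 in SMK and 811 in CTL, a ratio of 4.64-fold (4.39 to 4.89). MiR-342-3p, made in an intron of Evl (chromosome 12, 108658620 to 108658718) and frequent in lymphoid cells, had 4301 RPM in HC, against 2379 in aging, 2919 in SMK and 1187 in CTL, a ratio of 3.62-fold (3.46 to 3.80). MiR-342-3p was 1.47-fold when SMK replaced CTL, within the limits, whereas miR-92a-3p was 1.95-fold. Among the other higher miRs that the study discusses, let-7d-3p reached 3.28-fold (2.79 to 3.86), miR-425-5p 2.75-fold (2.58 to 2.93) and miR-15b-5p 2.62-fold (2.36 to 2.92). These were also within the limits against SMK, at 1.53-fold, 1.46-fold and 1.45-fold.

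**Figure D2:**
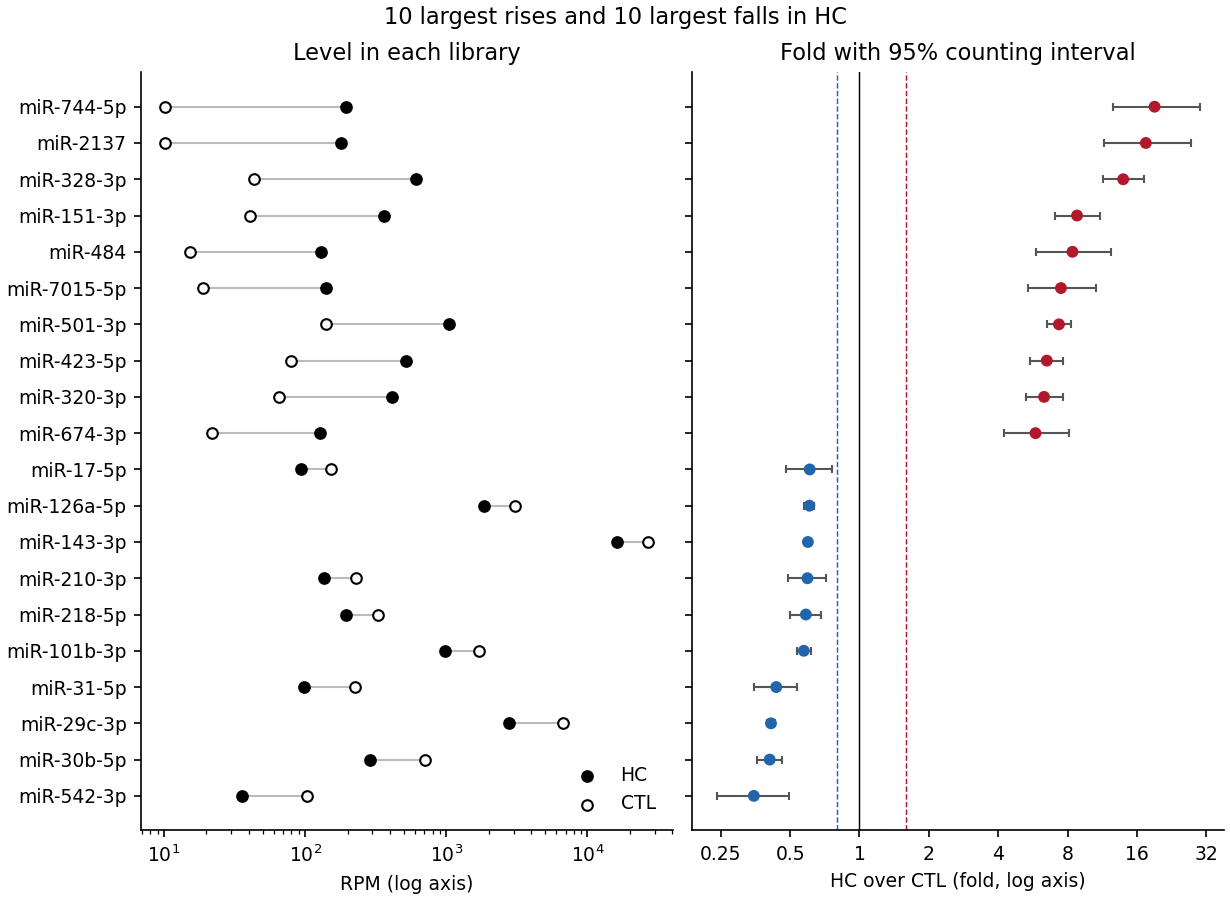
Left, levels (RPM, log axis) of the 10 largest and 10 lowest ratios in the HC (filled) and CTL (open) libraries; right, the fold of HC over CTL (log axis) with its 95% counting interval, a solid line at 1 and dashed lines at 0.8 and 1.6. The ratios run from 19.1-fold for miR-744-5p at the top to 0.348-fold for miR-542-3p at the bottom, and 9 of the 10 largest have a CTL level under 100 RPM.

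The lowest ratio was that of miR-542-3p, encoded on the X chromosome beside miR-322 and miR-503 (chromosome X, 53049403 to 53049487). It had 35.6 RPM in HC, against 45.9 in aging, 59.3 in SMK and 102 in CTL, which is 0.348-fold (0.240 to 0.493) for HC over CTL. MiR-30b-5p had 289.7 RPM in HC, against 380.5 in aging, 514 in SMK and 710.1 in CTL, or 0.408-fold (0.360 to 0.461). MiR-29c-3p, of a family that represses collagen mRNAs (chromosome 1, 195037547 to 195037634), had 2761 RPM in HC, against 3361 in aging, 3502 in SMK and 6684 in CTL, or 0.413-fold (0.397 to 0.430). In these 3 miRs HC was the lowest and CTL the highest library, and SMK was the nearest to CTL. Against SMK, miR-29c-3p was 0.789-fold.

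MiR-31-5p, encoded on chromosome 4, 88910557 to 88910662, had 98.2 RPM in HC, against 21.03 in aging, 175 in SMK and 225 in CTL, or 0.435-fold (0.349 to 0.538). MiR-101b-3p, a repressor of Ezh2 made in an intron of Rcl1 (chromosome 19, 29135279 to 29135375), had 987 RPM in HC, against 1212 in aging, 1087 in SMK and 1720.1 in CTL, or 0.574-fold (0.535 to 0.614). MiR-218-5p, encoded in introns of Slit2 and Slit3, had 193 RPM in HC, against 86.7 in aging, 240.1 in SMK and 330.5 in CTL, or 0.585-fold (0.499 to 0.684). For miR-31-5p and miR-218-5p the aging library was well below HC, so HC was not the lowest. With SMK in place of CTL, miR-101b-3p (0.907-fold) and miR-218-5p (0.806-fold) lay within the limits.

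MiR-210-3p, the miR most directly induced by hypoxia-inducible factor (chromosome 7, 141221384 to 141221493), had 137 RPM in HC, against 170.2 in aging, 215 in SMK and 229.8 in CTL, or 0.595-fold (0.492 to 0.716). It was among the few lower miRs of high GC content (63.6%). MiR-143-3p, typical of smooth muscle and stromal cells, had 16172 RPM in HC, against 8097 in aging, 23236 in SMK and 27068 in CTL, or 0.597-fold (0.587 to 0.608). MiR-126a-5p had 1865 RPM in HC, against 1372 in aging, 3667 in SMK and 3077 in CTL, or 0.606-fold (0.577 to 0.637). MiR-17-5p had 93.4 RPM in HC, against 115 in aging, 119.8 in SMK and 153 in CTL, or 0.608-fold (0.482 to 0.762). For miR-126a-5p the SMK library was above CTL and aging was the lowest, as for its partner arm below.

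The 15 most abundant miRs of the HC library held 78.6% of it, against 83.7% for the 15 most abundant of CTL. Of those 15, 4 were lower, 3 were higher and 8 lay between the limits. MiR-21a-5p, abundant in activated macrophages and made from the Vmp1 locus, had 274087 RPM in HC and 310000.0 RPM in CTL (0.884-fold). MiR-16-5p, which represses cyclin mRNAs, had 110890.0 RPM in HC and 107167 RPM in CTL (1.03-fold). Both lay within the limits.

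The higher miRs of the 15 were miR-125b-5p, miR-30d-5p and miR-223-3p. MiR-125b-5p, which holds back differentiation of hematopoietic progenitors and is also frequent in stromal cells, had 31259 RPM in HC, against 14647 in aging, 18941 in SMK and 13151 in CTL, or 2.38-fold (2.34 to 2.41). It remained above 1.6-fold against SMK (1.65-fold) and with the trimmed mean (1.77-fold), but not with total reads (1.47-fold) or recovered counts over total reads (1.05-fold). MiR-30d-5p had 16538 RPM in HC, against 20032 in aging, 11998 in SMK and 7292 in CTL, or 2.27-fold (2.22 to 2.32), and was highest in aging. MiR-223-3p, the granulocyte and monocyte miR on the X chromosome (chromosome X, 96242817 to 96242926), had 37472 RPM in HC, against 28832 in aging, 31208 in SMK and 22760.1 in CTL, or 1.65-fold (1.63 to 1.67). Its call ended with each other scaling, at 1.56-fold with totals without miR-21a-5p, 1.51-fold with the median ratio, 1.23-fold with the trimmed mean, 1.02-fold with total reads and 0.727-fold with recovered counts over total reads.

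The lower miRs of the 15 were miR-143-3p, described above, let-7f-5p, miR-29a-3p and miR-126a-3p. Let-7f-5p had 66976 RPM in HC, against 79041 in aging, 65316 in SMK and 89024 in CTL, or 0.752-fold (0.746 to 0.759). MiR-29a-3p had 42903 RPM in HC, against 45975 in aging, 40634 in SMK and 55299 in CTL, or 0.776-fold (0.768 to 0.784). For both, CTL stood above the other 3 libraries, and against SMK the ratio was on the other side of 1, at 1.03-fold for let-7f-5p and 1.06-fold for miR-29a-3p.

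MiR-126a-3p, which is made within Egfl7 and favours signalling by vascular endothelial growth factor through repression of Spred1, had 16558 RPM in HC, against 12424 in aging, 30016 in SMK and 25999.6 in CTL, or 0.637-fold (0.626 to 0.648). It was lower in HC than in CTL and SMK but above aging. With the arms and the antisense hairpin, 3 of 4 tested endothelial miRs were lower, against 18.4% lower and 34.8% higher over all 158 miRs, with a median log2 fold of -0.65 against 0.32, and a sum of 18850.1 RPM in HC and 29551 RPM in CTL. All 4 come from the miR-126 locus. The other listed hairpin was under the minimum, with 91.4 RPM in HC and 20.9 RPM in CTL for miR-139-3p (4.38-fold, 3.10 to 6.26) and 59.7 RPM in HC and 78.3 RPM in CTL for miR-139-5p (0.762-fold, 0.564 to 1.02). In pooled RNA, fewer cells of a type and less of an RNA per cell cannot be told apart. With SMK in place of CTL the endothelial median was -0.84.

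The miRs of other cell types were read in the same way. Of 12 tested mesenchymal miRs, 6 were lower, 1 was higher and 5 lay between, against 18.4% lower and 34.8% higher over all 158 miRs, with a median log2 fold of -0.32. The lower ones included miR-31-5p, miR-218-5p and miR-143-3p as above and miR-199a-3p/miR-199b-3p, a joint name of the table, with 5989 RPM in HC and 8551 RPM in CTL (0.700-fold). Their sum was nevertheless 56995 RPM in HC and 52840.3 RPM in CTL, because miR-125b-5p outweighed the rest, so the median and the sum differ in sign. Of the mesenchymal miRs, miR-145a-5p, cut from the same transcript as miR-143-3p, lay between the limits with 384 RPM in HC and 364 RPM in CTL. MiR-31-5p was under 100 RPM in HC and entered through CTL, so that its ratio had to be below 1.

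Of 9 tested myeloid miRs, 1 (miR-223-3p) was higher, none lower and 8 between, against 34.8% higher and 18.4% lower over all 158 miRs. Their median log2 fold was 0.07. The sign of this median turned with the median ratio (-0.05), the trimmed mean (-0.35), total reads (-0.62) and recovered counts over total reads (-1.11). MiR-142a-3p, found in all blood cells, had 30954 RPM in HC and 36128 RPM in CTL (0.857-fold). MiR-146a-5p, a brake on inflammatory signalling, had 29869.5 RPM in HC and 28097 RPM in CTL (1.06-fold), and miR-155-5p, which is raised in activated macrophages, had 569.8 RPM in HC and 611 RPM in CTL (0.932-fold). All tested myeloid miRs apart from miR-223-3p thus lay within the limits.

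Of 4 tested lymphoid miRs, 3 were higher and 1 lay between, against 34.8% higher over all 158 miRs, with a median log2 fold of 1.02, which was 0.32 with total reads, -0.16 with recovered counts over total reads and 0.15 against SMK. They were miR-342-3p, miR-181a-5p (2076 RPM in HC and 972 RPM in CTL, 2.14-fold) and miR-181b-5p (391 RPM in HC and 203.4 RPM in CTL, 1.92-fold). The sum of the 11 listed lymphoid miRs was 7039.6 RPM in HC and 2599 RPM in CTL, but miR-150-5p, the defining miR of mature lymphocytes, had 35.6 RPM in HC and 36.2 RPM in CTL. MiR-486b-5p, of red cells and muscle, had 187 RPM in HC, against 36.3 in aging, 46.1 in SMK and 32.3 in CTL, or 5.79-fold (4.45 to 7.59). HC stood apart from all 3 other libraries, but miR-486b-5p was under 100 RPM in CTL and entered through HC, so that its ratio had to be above 1. MiR-451a, the defining miR of red cells, was under the minimum with 52.0 RPM in HC, against 2.55 in aging, 14.4 in SMK and 22.4 in CTL. The part of lymphoid or red cells in the HC values was not tested. Of 12 progenitor miRs, 3 were lower, 2 were higher and 7 lay between, with a median log2 fold of -0.01, and of 3 epithelial and liver miRs 1 was lower. Over all 158 miRs, 18.4% were lower and 34.8% higher.

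**Figure D3:**
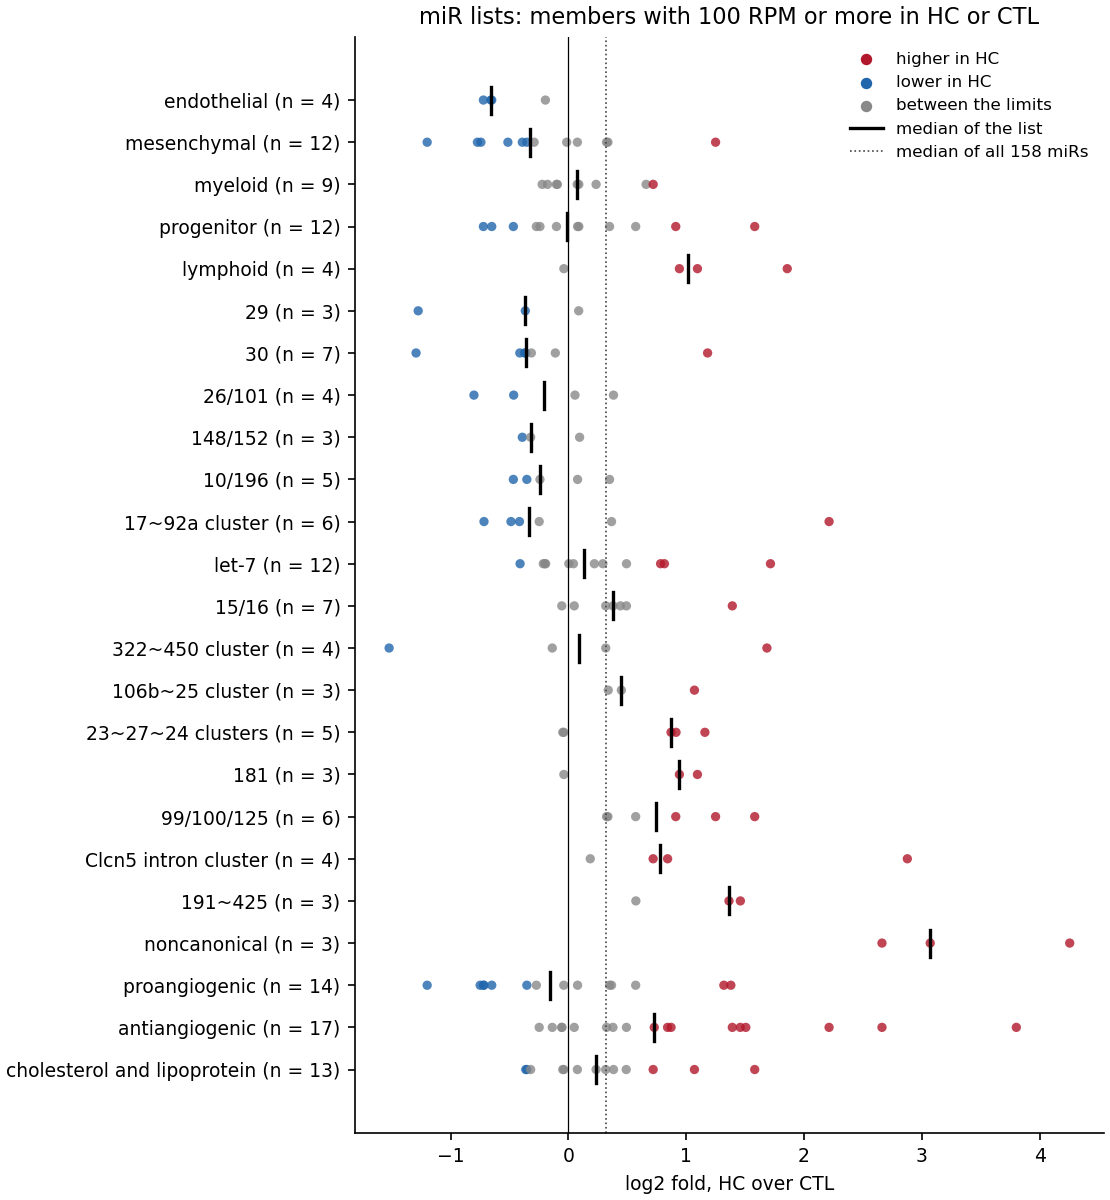
Log2 fold of HC over CTL (horizontal) for the tested members of the lists drawn, 1 point a miR, with the median of the list (bar) and of all 158 miRs (dotted line at 0.32). Of the lists drawn, the endothelial one has the lowest median, -0.65, and the 3 noncanonical miRs have a median of 3.07, but all 3 were under 100 RPM in CTL and entered through HC, so that their ratio had to be above 1.

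Families that share a seed did not always have like folds. Of the 158 miRs, 59 fell into 21 groups with an identical seed. Only miRs with a sequence could be grouped, so the groups may lack members. All members were higher in 4 groups and lower in 2, all lay between the limits in 5, and the call differed within 10. In 13 groups the intervals of the lowest and highest member were apart.

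The seed CCCUGAG was one of those with all members higher. MiR-125b-5p, miR-125a-5p (3439 RPM in HC and 1149 RPM in CTL, 2.99-fold, 2.85 to 3.14) and miR-351-5p (309.9 RPM in HC and 96.4 RPM in CTL, 3.22-fold, 2.71 to 3.81) carry it and summed to 35008 RPM in HC and 14397 RPM in CTL. Their genes lie on different chromosomes. MiR-351-5p was under 100 RPM in CTL and entered through HC, so that its ratio had to be above 1. After removal of a straight line on GC content, miR-125b-5p was at 1.56-fold, miR-125a-5p at 1.96-fold and miR-351-5p at 1.33-fold, so that 2 of the 3 calls ended, and with recovered counts over total reads (1.05-fold, 1.32-fold and 1.42-fold) all 3 did. MiR-221-3p and miR-222-3p, which share a seed and hold back endothelial growth by repressing Kit, had 1.66-fold and 2.84-fold, and the call of miR-221-3p ended with each other scaling (down to 0.731-fold with recovered counts over total reads). MiR-181a-5p and miR-181b-5p, and miR-103-3p (1.61-fold) and miR-107-3p (1.67-fold) were the other groups with all members higher. The calls of miR-103-3p and miR-107-3p ended with each other scaling, and miR-181a-5p was at 1.59-fold with the trimmed mean. With the GC trend removed, miR-181a-5p was at 1.52-fold, miR-181b-5p at 1.47-fold, miR-103-3p at 1.14-fold and miR-107-3p at 1.18-fold. No seed group then had all members higher.

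The seed GUAAACA had all 3 members with a sequence lower. MiR-30b-5p (0.408-fold, lower) and miR-30d-5p (2.27-fold, higher) had no sequence and were not placed in a group. MiR-30a-5p had 2526 RPM in HC and 3362 RPM in CTL, miR-30e-5p 3345 RPM in HC and 4331 RPM in CTL and miR-30c-5p 294 RPM in HC and 377.3 RPM in CTL, and their folds lay between 0.751 and 0.778. Of the whole miR-30 family, 4 of 7 tested members were lower, 1 (miR-30d-5p) was higher and 2 lay between, with a median log2 fold of -0.36. Over all 158 miRs, 18.4% were lower and 34.8% higher. The summed level of the family was 23410.3 RPM in HC and 16522 RPM in CTL, since miR-30d-5p is its most abundant member, so the median and the sum again differ in sign. MiR-19a-3p (0.750-fold) and miR-19b-3p (0.713-fold) were the other group with all members lower.

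Other groups were split. MiR-92a-3p and miR-25-3p have the seed AUUGCAC, yet miR-92a-3p was 4.64-fold and miR-25-3p 1.37-fold (1.31 to 1.43), a gap of 3.40 times (3162 RPM in HC and 2316 RPM in CTL for miR-25-3p). In the miR-29 family, miR-29c-3p (0.413-fold) and miR-29a-3p (0.776-fold) were lower, while miR-29b-3p had 2977 RPM in HC and 2803 RPM in CTL (1.06-fold, 1.02 to 1.11). The summed level of the family was 48692 RPM in HC and 64826 RPM in CTL. In the miR-15/16 family, 6 of 7 tested members lay between the limits, against 53.2% of all 158 miRs past a limit. MiR-15b-5p, with 686 RPM in HC and 262 RPM in CTL, was the only member past them. The 9 let-7 miRs with the seed GAGGUAG ran from let-7f-5p (0.752-fold) to let-7b-5p (11947 RPM in HC and 6791 RPM in CTL, 1.76-fold, 1.72 to 1.80), the only 1 of the 21 groups with a lower and a higher member. Their median log2 fold with the other arms included was 0.13, and its sign turned with the trimmed mean (-0.29), total reads (-0.57) and recovered counts over total reads (-1.05).

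Part of these contrasts lies between miRs that are hard to tell apart in reads. Of the tested miRs, 37 were within 2 edits of another, in 28 pairs, and the last mapping step of the study tolerated 2 mismatches. MiR-29a-3p and miR-29c-3p differ by 1 edit, as do miR-10a-5p (1.27-fold) and miR-10b-5p (0.783-fold), so the split of counts between them is uncertain.

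MiRs cut from 1 transcript also diverged. In the miR-17~92a cluster (chromosome 14, 115043671 to 115044506, in Mir17hg), miR-17-5p (0.608-fold), miR-19b-3p (0.713-fold) and miR-19a-3p (0.750-fold) were lower. MiR-20a-5p, of the same transcript, lay between with 734 RPM in HC and 872 RPM in CTL (0.842-fold), and miR-92a-3p was higher. MiR-17-5p was under 100 RPM in HC and entered through CTL, so that its ratio had to be below 1. MiR-19b-3p and miR-92a-3p can also come from a copy on the X chromosome, whose own 4 listed miRs were all under the minimum and summed to 71.2 RPM in HC and 72.4 RPM in CTL. The median log2 fold of the 6 tested miR-17~92a miRs was -0.33, whereas their sum with the other listed members was 5905 RPM in HC and 3404 RPM in CTL, owing to miR-92a-3p.

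In the X-linked cluster of miR-542 (X, 53049403 to 53054349), miR-542-3p was lower, miR-503-5p (93.4 RPM in HC and 103 RPM in CTL, 0.909-fold) and miR-322-5p (916 RPM in HC and 736 RPM in CTL, 1.25-fold) lay between, and miR-351-5p, farther along, was higher. In the Clcn5 intron, miR-362-5p (1.65-fold), miR-362-3p (1.79-fold) and miR-501-3p (7.35-fold) were higher and miR-532-5p lay between with 2037 RPM in HC and 1791 RPM in CTL. MiR-351-5p and miR-362-3p were under 100 RPM in CTL and entered through HC, so that their ratio had to be above 1. MiR-542-3p and miR-503-5p entered through CTL, so that theirs had to be below 1. MiR-191-5p, with 9427 RPM in HC and 3666 RPM in CTL (2.57-fold), and miR-425-5p, with 1976 RPM in HC and 718 RPM in CTL, lie together on chromosome 9 and were both higher, with overlapping intervals. MiR-23a-3p (1.88-fold), miR-23b-3p (2.23-fold) and miR-24-3p (1.83-fold) were higher, while miR-27a-3p (0.967-fold) and miR-27b-3p (0.973-fold) of the same transcripts lay between. MiR-27a-3p and miR-27b-3p, which share a seed, had overlapping intervals.

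The other lists held few tested members, and their counts stand beside 18.4% lower and 34.8% higher over all 158 miRs. In the miR-106b~25 cluster, 1 of 3 was higher (miR-106b-3p), with a median log2 fold of 0.45 that was -0.25 with total reads and -0.26 with the GC trend removed. Of 5 tested miRs of the miR-10 family and its relatives, 2 were lower (miR-10b-5p and miR-196b-5p, 0.723-fold). Both miR-101b-3p and miR-101a-3p were lower (for miR-101a-3p, 1480.3 RPM in HC and 2043 RPM in CTL, 0.725-fold), while miR-26a-5p (1.30-fold) and miR-26b-5p (1.04-fold) lay between. Of 3 tested miRs of the miR-148 family, miR-152-3p was lower (0.762-fold). Neither miR-34a-5p (0.962-fold) nor miR-34c-5p (0.817-fold) was past a limit, nor was miR-130a-3p (0.828-fold) or the neuronal miR-128-3p (1.41-fold). The 3 tested miRs that bypass the Microprocessor (miR-744-5p, miR-484 and miR-320-3p) were all under 100 RPM in CTL and entered through HC, so that their ratio had to be above 1, and with 100 RPM required in CTL none was tested.

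The arms of 1 hairpin are made from the same RNA in equal numbers before 1 arm is degraded. Both arms were tested for 19 hairpins. Their folds were on the same side of 1 in 16, and the intervals of the arms were apart in 11. Both arms were higher for let-7b, miR-361, miR-362 and miR-423, and both were lower for miR-126a. In no hairpin was 1 arm lower and the other higher. Both arms of miR-423 and of miR-324 were under 100 RPM in CTL and entered through HC. Their ratios had to be above 1, and so on the same side. MiR-362-3p, miR-378a-5p, miR-425-3p and miR-674-3p also entered through HC with a ratio that had to be above 1. MiR-17-5p entered through CTL, so that its ratio had to be below 1.

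The widest gap was that of miR-674, where the 5p arm had 132.8 RPM in HC and 114 RPM in CTL (1.16-fold) and the 3p arm 5.81-fold. The 5p arm made up 50.9% (44.8 to 57.0) in HC and 83.9% (79.6 to 87.6) in CTL of its counts (exact binomial 95% interval). MiR-674-3p had 22.03 RPM in CTL and entered through HC, so that its ratio had to be above 1. For miR-324, the 5p arm was 1.37-fold and the 3p arm 3.73-fold, and the share of the 5p arm was 51.3% (45.2 to 57.4) in HC and 74.2% (69.1 to 78.8) in CTL. For miR-17, the 5p arm was 0.608-fold and the 3p arm 1.29-fold, with 5p shares of 28.3% (23.6 to 33.4) in HC and 45.5% (42.1 to 48.9) in CTL. MiR-140 (0.645-fold for 5p, 1.32-fold for 3p) and miR-142a (1.58-fold for 5p, 0.857-fold for 3p) were the other hairpins with arms on opposite sides of 1.

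**Figure D4:**
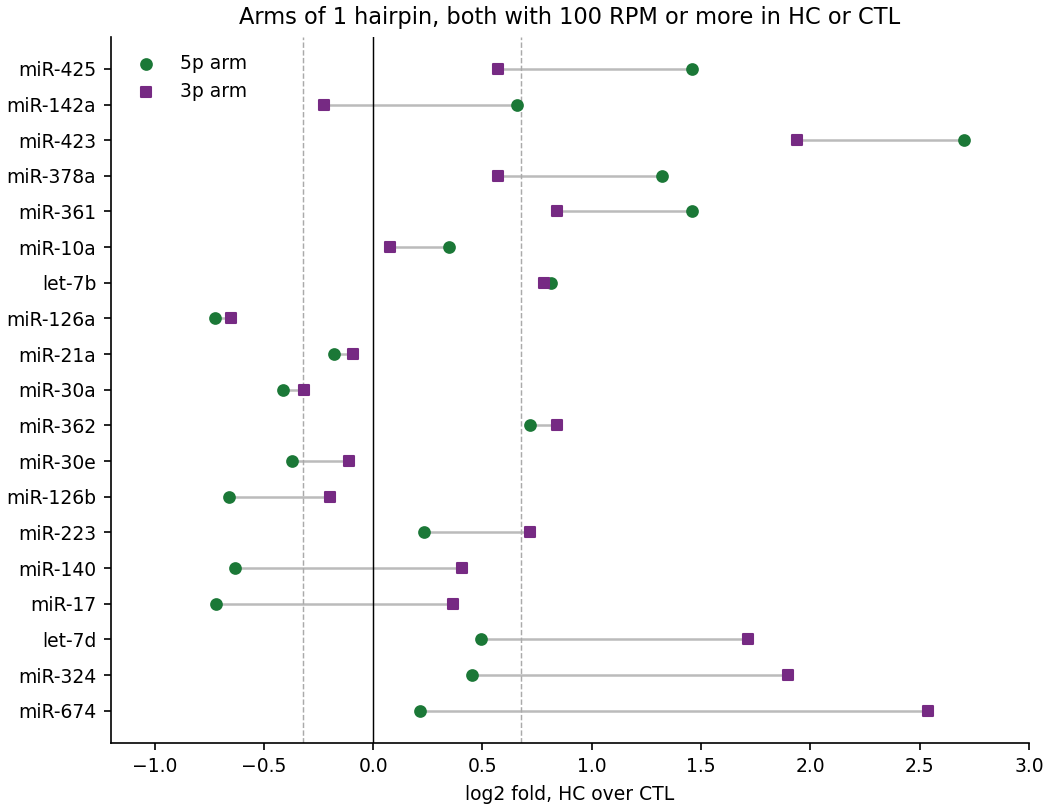
Log2 fold of HC over CTL (horizontal) of the 5p arm (circle) and the 3p arm (square) of the 19 hairpins with both arms tested, joined by a line, with dashed lines at the limits. The gap is widest for miR-674 (5p 1.16-fold, 3p 5.81-fold), and the line crosses 0 for miR-17, miR-140 and miR-142a. The 3p arm of miR-674 was under 100 RPM in CTL and entered through HC, so that its ratio had to be above 1.

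Lists of miRs by role in vessel growth were compared next. They go by hairpin name and hold all listed arms, such as both arms of miR-361, whichever arm has the listed role. Of 14 tested proangiogenic miRs, 6 were lower, 2 were higher and 6 lay between, against 18.4% lower and 34.8% higher over all 158 miRs, with a median log2 fold of -0.16 against 0.32. The lower ones were both arms of miR-126a, miR-17-5p, miR-31-5p, miR-210-3p and miR-10b-5p. The higher ones were miR-132-3p, which removes the brake of p120RasGAP on endothelial growth, with 244 RPM in HC, against 84.1 in aging, 197 in SMK and 93.6 in CTL (2.60-fold, 2.17 to 3.12), and miR-378a-5p, with 146.3 RPM in HC and 58.6 RPM in CTL (2.496-fold). MiR-27b-3p, which favours sprouting, and miR-10a-5p were between the limits. MiR-132-3p and miR-378a-5p were under 100 RPM in CTL and entered through HC, so that their ratio had to be above 1. MiR-31-5p and miR-17-5p were under 100 RPM in HC and entered through CTL, so that theirs had to be below 1. The sign of the median depended on the minimum, at 0.08 with 100 RPM required in HC and -0.31 with it required in CTL. Against SMK it was -0.23. It was -0.58 with the trimmed mean, -0.85 with total reads, -1.34 with recovered counts over total reads and -0.57 with the GC trend removed.

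Of 17 tested antiangiogenic miRs, none was lower, 9 were higher and 8 lay between, against 18.4% lower and 34.8% higher over all 158 miRs, with a median log2 fold of 0.73. Of the 9, 2 (miR-328-3p and miR-320-3p) were under 100 RPM in CTL, and the median was 0.49 with 100 RPM required in CTL. Besides miR-328-3p, miR-320-3p, miR-92a-3p, miR-222-3p, miR-221-3p and miR-15b-5p, the higher ones were miR-361-5p, a repressor of vascular endothelial growth factor (727 RPM in HC and 264 RPM in CTL, 2.75-fold), miR-361-3p (1.79-fold) and miR-24-3p (4303 RPM in HC and 2353 RPM in CTL, 1.83-fold). MiR-16-5p, miR-15a-5p, miR-34a-5p and miR-20a-5p, also of this list, lay between the limits, with 7095 RPM in HC and 7376 RPM in CTL for miR-34a-5p. The median was 0.03 with total reads, -0.45 with recovered counts over total reads and 0.02 with the GC trend removed, and it was 0.33 against SMK. The summed levels were 37369 RPM in HC and 45931 RPM in CTL for the proangiogenic list and 138496 RPM in HC and 125308 RPM in CTL for the antiangiogenic list, in which miR-16-5p alone is the largest part. The median GC content was 47.6% for the proangiogenic and 48.0% for the antiangiogenic list, over members with a sequence. This leaves out miR-126a-5p and both arms of miR-378a from the first, and miR-328-3p and miR-320-3p from the second.

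Of 13 tested miRs listed for roles in cholesterol and lipoprotein handling, 3 were higher, 2 were lower and 8 lay between, with a median log2 fold of 0.23. This median was -0.19 with the trimmed mean, -0.46 with total reads and -0.35 with the GC trend removed. The higher ones were miR-223-3p, miR-125a-5p and miR-106b-3p. The list goes by hairpin name, so miR-106b-3p entered with its hairpin, whichever arm has the listed role. MiR-106b-3p had 268 RPM in HC and 127.5 RPM in CTL (2.10-fold, 1.78 to 2.47), and with the GC trend removed it was on the other side of 1 (0.836-fold). MiR-106b-5p, the other arm and also listed, was under the minimum with 6.74 RPM in HC and 19.3 RPM in CTL (0.349-fold, 0.134 to 0.776). The lower ones were miR-10b-5p, with 455 RPM in HC and 581 RPM in CTL, and miR-30c-5p, which lowers lipoprotein secretion by the liver. MiR-33-5p, made in the gene of the regulator Srebf2 and the best-known repressor of the cholesterol exporter Abca1, was under the minimum with 4.81 RPM in HC, against 7.01 in aging, 4.19 in SMK and 2.75 in CTL. MiR-148a-3p, which represses the low-density lipoprotein receptor, had 2763 RPM in HC and 3451 RPM in CTL (0.801-fold, 0.767 to 0.835). MiR-122-5p, the liver miR, was also under the minimum with 14.4 RPM in HC and 11.8 RPM in CTL. The share of this list past the limits, 5 of 13, was below the 53.2% of all tested miRs.

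The ratio moved with base composition. Across the miRs with a sequence (89.2% of 158), the log2 fold and the GC content of the mature miR had a Pearson r of 0.57 and a Spearman rho of 0.53, and a straight line had a slope of 0.54 log2 units for 10 points of GC. These values describe miRs of the same 2 libraries, which are not independent replicates. The percentage of higher miRs was 0 of 16 miRs under 35% GC, 6.25% of 16 from 35%, 12.9% of 31 from 40%, 41.7% of 24 from 45%, 50% of 28 from 50% and 69.2% of 26 from 55%. Over the same classes the median log2 fold was -0.15, -0.19, 0.10, 0.35, 0.67 and 0.96. All these values include miRs that entered through HC, so that their ratio had to be above 1. They were 22 of all 55 higher miRs, and most of the higher miRs from 55% GC were among them. The length of the mature miR was only loosely related to the fold (r 0.16, rho 0.15).

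**Figure D5:**
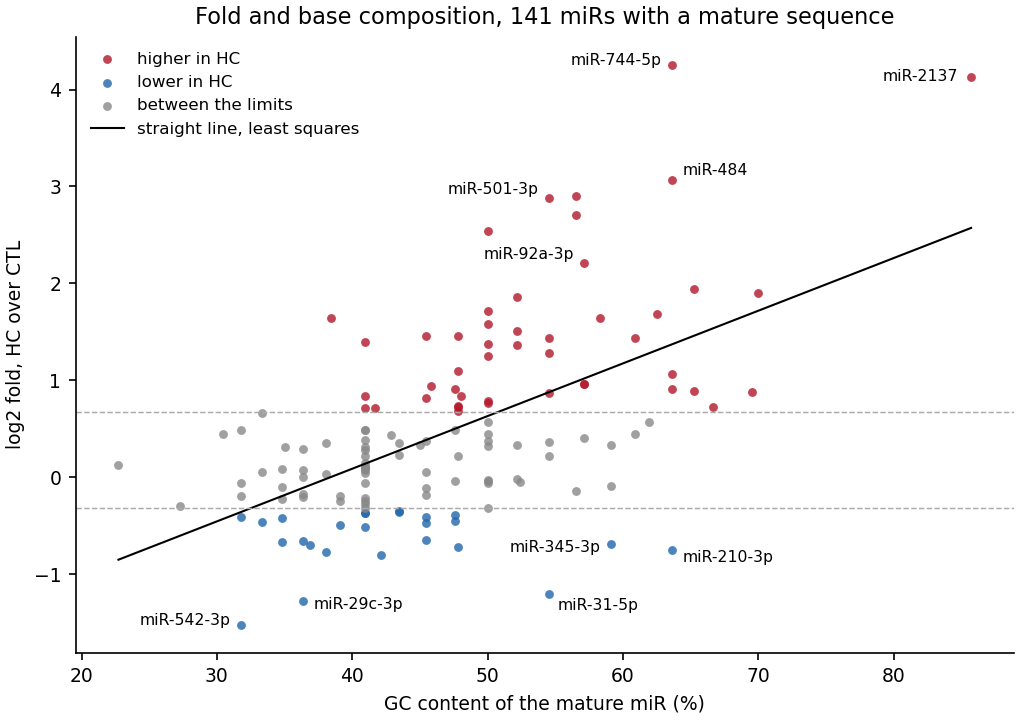
Log2 fold of HC over CTL (vertical) against the GC content of the mature miR (%, horizontal) for the miRs with a sequence, 1 point a miR, with a least-squares line and dashed lines at the limits. Points under 35% GC hold no higher miR, while 18 of 26 points from 55% are higher, and miR-345-3p and miR-210-3p are lower in spite of a high GC content. Most of the 18 were under 100 RPM in CTL and entered through HC. These were miR-744-5p, miR-2137, miR-484, miR-7015-5p, miR-423-5p, miR-423-3p, miR-324-3p, miR-351-5p, miR-149-5p and miR-1981-5p. Their ratio had to be above 1.

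The same measure against other libraries gave a smaller slope, 0.20 log2 units for 10 points of GC for HC over SMK and 0.11 for HC over aging. With CTL as the denominator the slope was 0.35 for aging and 0.26 for SMK. These ratios share libraries with each other and with HC over CTL. The RPM-weighted GC content of the libraries was 40.5% in HC, 40.1% in aging, 40% in SMK and 39.5% in CTL. Among the largest ratios, GC content was 63.6% for miR-744-5p, 85.7% for miR-2137 and 63.6% for miR-484. After the trend on GC content was removed, miR-744-5p was at 7.61-fold, miR-2137 at 3.11-fold, miR-501-3p at 4.08-fold and miR-92a-3p at 2.34-fold, all still above the limit. On the other side, miR-210-3p moved to 0.237-fold, miR-31-5p to 0.242-fold and miR-29c-3p to 0.446-fold. Within hairpins, where both arms come from the same RNA, the arm richer in GC had the higher fold in 8 of 16. Removing the trend also centres the folds at 0, and left 53 lower and 23 higher miRs. The part of base composition, library depth and pool size in the folds was not tested.

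The folds were also counted by chromosome. Of 18 tested miRs with a single location on the X, 13 were higher, 1 (miR-542-3p) was lower and 4 lay between, with a median log2 fold of 0.84. Over all 118 tested miRs with a single location, 40 were higher, 19 were lower and 59 lay between, with a median of 0.33. The median GC content was 47.9% for the X and 46.5% for the 118 miRs. The X-linked miRs included miR-221-3p, miR-222-3p, miR-223, miR-361, miR-362 and miR-501, several of which share a transcript and are not independent of each other. Of the higher ones, miR-2137, miR-351-5p and miR-362-3p were under 100 RPM in CTL and entered through HC. Their ratio had to be above 1. MiR-542-3p entered through CTL, so that its ratio had to be below 1. The calls of miR-221-3p, miR-223-3p and miR-362-5p ended with each other scaling.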

How the data were processed

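MiRs were measured by small RNA sequencing (QIAseq kit, NextSeq instrument) in 4 libraries of pooled PAC RNA, of which HC and CTL were compared. The authors deposited 1 table of RPM values, that is, counts normalized by library size. By the methods, reads were mapped in steps with bowtie to miRBase 21, whereas the submitters' processing notes name bcl2fastq 2.20, TopHat2 2.0.10 and HTSeq 0.5.4; the accounts were not reconciled here. Whether reads with the same molecular identifier were merged is not given in the sources used here.

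Each deposited RPM value was divided by the smallest of its library. This returned whole counts for 100% of values within 0.001 count, and library totals followed. Folds are ratios of RPM without a pseudocount, and intervals are exact conditional binomial (Clopper-Pearson, 95%). With 1 library a group no count test could be run and no p-value is given. Folds and intervals were tested on simulated data. The limits of 0.8 and 1.6 and the level of 100 RPM are those of the study, whose methods do not state which library has to reach it. Accepting either library was a choice made here.

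The miRs named were the 10 largest and 10 lowest ratios, the 15 most abundant in HC, the HC miRs named by the study, examples from 37 lists, and 5 high and 5 low ratios under the minimum. MiR-345-3p, miR-103-3p, miR-107-3p, miR-150-5p, miR-451a, miR-33-5p and miR-122-5p and arms or cluster partners were added after their values were seen. The members and lists were chosen with earlier results of these data known. Lists were set by hairpin name, and all listed arms of a hairpin were counted as members. The 6 joint names of the table were kept. Sequences came from RefSeq and host genes from GENCODE M21 (both GRCm38). For 7 miRs without a mature entry, hairpin GC was used in the removal of the GC trend. Alternatives were other scalings (including the trimmed mean of edgeR 4.0.16 in R 4.3.3), minimums, pseudocounts of 1 and 10 RPM, limits, SMK as the denominator, recovered counts over total reads (chosen after seeing the data), GC trend removal, intervals past a limit and summed families. The reads, target predictions and cell assays were not analysed here. Python 3.11.15, matplotlib 3.10.9, pandas 2.3.3, scipy 1.17.1 and numpy 2.4.6 were used.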

Additional observations from a re-analysis of the deposited data

How the results depend on the processing

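The counts that moved by over 1.5 times are given here with their percent of the miRs tested under each choice. With no minimum, 568 miRs entered in place of 158, and all 3 counts moved by over 1.5 times, to 66.0% of 568 past the limits, 22.5% of 568 lower and 247 (43.5%) higher. The 84 (53.2%) past the limits became 39 (24.7%) with limits of 0.5 and 2 and 33 (21.2%) with SMK in place of CTL. The 29 (18.4%) lower miRs became 67 (42.4%) with the trimmed mean, 87 (55.1%) with total reads, 12 (7.59%) with limits symmetric on the log scale, 4 (2.53%) with limits of 0.5 and 2, 17 (10.9%) with SMK in place of CTL, 53 (35.8%) with the GC trend removed and 19 (14.96%) with the members of each family, taken by name, summed. The 55 (34.8%) higher miRs became 33 (20.9%) with the trimmed mean, 27 (17.1%) with total reads, 33 (25%) with 100 RPM required in CTL, 33 (25.98%) with it required in both, 35 (22.2%) with limits of 0.5 and 2, 16 (10.3%) with SMK in place of CTL and 23 (15.5%) with the GC trend removed. The pseudocounts, the median ratio, totals without miR-21a-5p and the mean or HC minimum kept all 3 counts within 1.5 times. Recovered counts over total reads, chosen after seeing the data, gave 81.6% of 158 past the limits, 115 (72.8%) lower and 14 (8.86%) higher.

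Of all 84 miRs past a limit, the ratio crossed 1 for 1 with total reads, 23 with recovered counts over total reads, 4 against SMK and 7 with the GC trend removed. Of the 73 miRs named by rule, let-7f-5p (1.03-fold) and miR-29a-3p (1.06-fold) crossed against SMK, and miR-106b-3p (0.836-fold) with the GC trend removed. With recovered counts over total reads, those of the 73 were miR-223-3p (0.727-fold), miR-106b-3p (0.926-fold), miR-23b-3p (0.985-fold), miR-221-3p (0.731-fold) and miR-181a-5p (0.943-fold). Other miRs given above crossed too. Against SMK they were miR-24-3p (4303 RPM in HC and 4337 RPM in SMK) and miR-19a-3p (128.01 RPM in HC and 120.4 RPM in SMK). With total reads (a shift of -0.696) it was miR-103-3p, with a log2 fold of 0.686. With recovered counts over total reads, every higher miR with a log2 fold under 1.18 crossed.

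Of the named calls, 17 lower and 28 higher, the 5 other scalings could end no lower call, since they lower every ratio, and ended 2 (median ratio), 4 (trimmed mean), 2 (without miR-21a-5p), 8 (total reads) and 16 (recovered counts over total reads) of the higher calls. Against SMK, 8 lower and 16 higher calls ended. With the GC trend removed, 1 of 15 lower and 8 of 23 higher calls ended. No paired analysis was possible because each group had 1 library. Leaving out a replicate was not possible for the same reason, and the spread between mice cannot be read from pools. HC had fewer counts than CTL, and the intervals carry this difference, but not that between pools.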

Other observations

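Under the minimum, 410 miRs had less than 100 RPM in both libraries, with a median of 11 counts in HC and 15 in CTL. The interval of the ratio included 1 for 256 of them and lay below 1 for 15, and for the others it lay above 1. The median log2 fold was 0.55, on the same side as for the tested miRs.

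Of these miRs, miR-217-5p had 53 counts in HC and 8 in CTL (51.0 RPM in HC, against 27.4 in aging, 16.2 in SMK and 3.15 in CTL), a ratio of 16.2-fold (7.66 to 39.5). MiR-6240 and miR-1249-3p had 36 counts in HC and 6 in CTL each, a ratio of 14.7-fold (6.13 to 42.6). MiR-7664-3p had 15 counts in HC and 1 in CTL, and its ratio of 36.7-fold (5.65 to 1545) has a wide interval. MiR-6236 had 53 counts in HC and 17 in CTL, a ratio of 7.63-fold (4.35 to 14.1).

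On the other side, miR-7090-3p had 1 count in HC and 151 in CTL (0.962 RPM in HC, against 0.637 in aging, 0.599 in SMK and 59.4 in CTL), a ratio of 0.0162-fold (0.000408 to 0.0916). MiR-7222-5p had 4 counts in HC and 178 in CTL (3.85 RPM in HC, against 7.01 in aging, 5.99 in SMK and 70.0 in CTL), a ratio of 0.0550-fold (0.0148 to 0.143). For both, CTL stood apart from all 3 other libraries. MiR-206-3p, a skeletal muscle miR, had 11 counts in HC and 82 in CTL (10.6 RPM in HC, against 3.82 in aging, 7.78 in SMK and 32.3 in CTL), a ratio of 0.328-fold (0.158 to 0.618). MiR-411-5p, of the imprinted Dlk1-Dio3 region, had 2 counts in HC and 35 in CTL, with a ratio of 0.140-fold (0.0163 to 0.544). MiR-7021-5p had 8 counts in HC and 54 in CTL, with a ratio of 0.362-fold (0.149 to 0.766).

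The arm with more counts differed between the libraries for 11 of 116 hairpins with both arms listed. For miR-151, the 5p arm made up 8.56% (6.03 to 11.7) in HC and 51.4% (44.5 to 58.3) in CTL, with 33.7 RPM in HC and 43.3 RPM in CTL for the 5p arm. For miR-139, both arms of which were under the minimum, it made up 39.5% (31.8 to 47.6) in HC and 79.0% (73.4 to 83.8) in CTL. MiR-139-5p had 59.7 RPM in HC and 78.3 RPM in CTL and miR-139-3p had 91.4 RPM in HC and 20.9 RPM in CTL, so that the ratio of the 3p arm was the farther from 1, as for miR-151. The 14 listed miRs of the Sfmbt2 intron, which is imprinted in mice, were all under the minimum and summed to 279 RPM in HC and 206.2 RPM in CTL, and the 7 of the Dlk1-Dio3 region summed to 105 RPM in HC and 63.3 RPM in CTL.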
